A study of Mus musculus with 17 samples.

Results

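Tafa1, Cacng7 and Chga, genes known mainly from nerve and hormone-secreting cells, were followed in subcutaneous tumors of the mouse colon cancer line MC38. They are 3 of the 21931 genes in the count table. Tafa1 and Cacng7 were chosen by their p-values in the comparison of the cryoablation group with the control group, where they ranked 5 and 6 of 13005 genes tested, and Chga was chosen because it passed a fold change threshold in the same comparison. The values of these genes in that comparison are therefore given as a description and carry no test.

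The tumors grew in wild-type C57BL/6J mice implanted at 6 to 8 weeks of age with MC38 cells on either flank. In the cryoablation group (Cryo, 8 tumors), 1 tumor of each mouse was frozen with a probe in 2 cycles on day 7, and the unfrozen tumor of the opposite side was sequenced 5 days later. The control group (Con, 9 tumors) carried the same cells and was collected at the same time point, and whether its mice received the anesthetic or a probe was not given in the sources used here. The groups follow the sample labels, although the text of the study gives the 2 group sizes the other way round. Neither group carried an engineered allele. MC38 is 1 established line grown under the skin, not in the colon, and each library came from a whole tumor with its stroma, vessels and leukocytes. Because the labels do not tie each control tumor to a mouse of its own, p-values measure the spread between these samples only.

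Tafa1 encodes a small secreted protein of the TAFA family, whose members resemble chemokines and are made mostly in the brain. Cacng7 encodes a transmembrane AMPA receptor regulatory protein of the calcium channel gamma family, an auxiliary subunit that travels with glutamate receptors in neurons and glia. Chga encodes chromogranin A, an acidic protein packed into the dense-core granules of endocrine cells and cut there into smaller peptides, and it is a standard tissue marker of neuroendocrine cells.

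The 250 bases ahead of each annotated start are shown so that the base composition and a known motif of the 3 genes can be compared. All 3 genes had 1 entry in the RefSeq promoter table of GRCm38.p6, each on the forward strand, and the capitals mark the only match to a cAMP response element (TGACGTCA or TGACGTAA, searched on both strands).
Tafa1, chr6:96112904-96113153: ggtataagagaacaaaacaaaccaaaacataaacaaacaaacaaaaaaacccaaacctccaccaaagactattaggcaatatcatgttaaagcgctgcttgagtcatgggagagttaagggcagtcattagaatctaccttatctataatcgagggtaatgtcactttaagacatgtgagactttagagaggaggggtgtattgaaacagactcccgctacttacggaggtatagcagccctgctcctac
Cacng7, chr7:3332575-3332824: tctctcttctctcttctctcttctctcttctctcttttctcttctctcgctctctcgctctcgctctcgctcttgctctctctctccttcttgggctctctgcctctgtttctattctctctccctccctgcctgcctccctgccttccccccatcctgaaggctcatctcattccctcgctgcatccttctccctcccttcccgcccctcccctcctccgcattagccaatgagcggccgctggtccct
Chga, chr12:102554691-102554940: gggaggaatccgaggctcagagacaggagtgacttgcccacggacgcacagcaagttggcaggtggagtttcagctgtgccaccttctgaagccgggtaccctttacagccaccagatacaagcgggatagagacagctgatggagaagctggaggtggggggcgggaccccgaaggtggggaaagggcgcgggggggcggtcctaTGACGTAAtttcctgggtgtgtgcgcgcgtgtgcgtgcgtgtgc
The G and C content was 40.8% ahead of Tafa1, 58.0% ahead of Cacng7 and 62.4% ahead of Chga, beside a median of 52.4% over 32851 promoters of the same length. The Chga match began 44 bases before the start, and 651 of the 32851 promoters (1.98%) held such a match. These letters describe the sequence and do not show binding of any factor.

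Library totals ranged from 13524899 to 17898672 counts, and levels are given as CPM, the counts scaled to a common library size by the trimmed mean of M-values. A gene with 0 counts may have had up to 3, or 0.168 to 0.222 CPM depending on the library, by counting error only. Cryo replicates 2, 4 and 5 stood apart from the other tumors on the first principal component, which held 64.0% of the variance, and Cryo replicate 7 lay at its opposite end. Con replicate 4 had the highest level of 12.3% of all genes tested, and Cryo replicates 4, 5 and 7 of 12.6%, 21.7% and 16.8%. Of 9 epithelial markers 5 passed the filter, with Con means from 2.09 CPM (Epcam) to 16.7 CPM (Cdh1) and Cryo means from 3.32 CPM (Epcam) to 29.6 CPM (Krt19), while Cdx2, a transcription factor of the gut epithelium, had 0 counts in every tumor. Over all genes, 639 of 13005 (4.91%) had an unadjusted p under 0.05 with edgeR's quasi-likelihood test, 487 (3.74%) higher and 152 (1.17%) lower in Cryo. Of these, 64 (0.492%) also had an absolute log2 fold change over 1, 46 (0.354%) higher and 18 (0.138%) lower, and 0 had an adjusted p under 0.05. The balance of directions turned around with limma voom (10 higher, 69 lower), with the replicate block (13 and 20), without Cryo replicates 2, 4 and 5 (7 and 50) and without replicate 7 as well (3 and 42). With 1 tumor left out it also turned without Cryo replicate 4 (15 and 28) and without Con replicate 6 (27 and 28). Without Cryo replicate 5 it was even (17 and 17), and without any other single tumor more genes were higher than lower.

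Tafa1 was the most abundant of the 3 genes and the only one that was higher in Cryo. In Con its level was lowest at 26.8 CPM (replicate 4), had a median of 36.0 CPM and was highest at 45.4 CPM (replicate 5), with a mean of 35.5 ± 6.62 CPM (SD, n = 9). In Cryo it was lowest at 39.1 CPM (replicate 4), had a median of 49.3 CPM and was highest at 56.5 CPM (replicate 2), with a mean of 47.9 ± 6.51 CPM (SD, n = 8). The groups overlapped, but 8 of 8 Cryo tumors lay above the Con median and 5 lay above the highest Con tumor. The log2 fold change, Cryo over Con, was 0.43 with a standard error of 0.12. The counts behind these levels ran from 414 to 856 per tumor, and the biological coefficient of variation was 0.180, with 24.0% of tested genes less dispersed. Leaving out any single tumor moved the log2 fold change between 0.38 (without Con replicate 4) and 0.48 (without Con replicate 5). Without Cryo replicates 2, 4 and 5 it was 0.38.

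**Figure D1:**
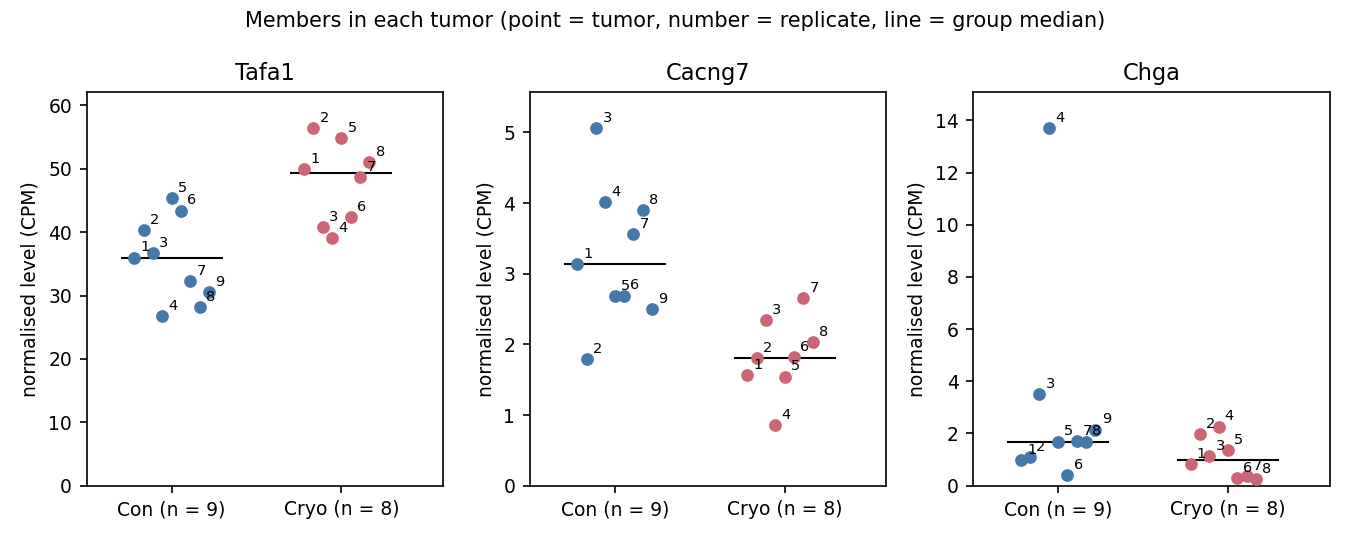
Normalised level of Tafa1, Cacng7 and Chga (CPM, linear axes from 0) in the 9 Con and 8 Cryo tumors. Each point is a tumor numbered by its replicate and each line is the group median: Tafa1 shifts from 36.0 to 49.3 CPM, Cacng7 from 3.14 to 1.81 CPM, and the Chga panel is stretched by Con replicate 4 at 13.7 CPM.

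Cacng7 was present at a low level and was lower in Cryo. The 9 Con tumors ran from 1.79 CPM (replicate 2) through a median of 3.14 CPM to 5.07 CPM (replicate 3), with a mean of 3.26 ± 0.983 CPM (SD, n = 9). The 8 Cryo tumors ran from 0.859 CPM (replicate 4) through a median of 1.81 CPM to 2.65 CPM (replicate 7), with a mean of 1.83 ± 0.545 CPM (SD, n = 8). All 8 Cryo tumors lay below the Con median, 3 lay below the lowest Con tumor, and the remaining 5 fell within the Con range. The log2 fold change was -0.83 with a standard error of 0.23. It rested on 31 to 100 counts per tumor in Con and 11 to 44 in Cryo, and the biological coefficient of variation was 0.298. Single tumors left out moved it between -0.93 (without Cryo replicate 7) and -0.72 (without Cryo replicate 4), and without Cryo replicates 2, 4 and 5 it was -0.65.

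Chga had the least even values of the 3 genes, and its fold change was the largest with all tumors but not without Con replicate 4, when Cacng7 stood at -0.79. Its level in Con was lowest at 0.418 CPM (replicate 6), had a median of 1.69 CPM and was highest at 13.7 CPM (replicate 4), with a mean of 2.99 ± 4.11 CPM (SD, n = 9). Its level in Cryo was lowest at 0.239 CPM (replicate 8), had a median of 0.980 CPM and was highest at 2.26 CPM (replicate 4), with a mean of 1.06 ± 0.776 CPM (SD, n = 8). Con replicate 4 held 212 counts, while the other Con tumors held 7 to 69 and the Cryo tumors 4 to 29. The groups overlapped widely: 6 of 8 Cryo tumors lay below the Con median, 2 lay above it, and 3 (replicates 6, 7 and 8) lay below the lowest Con tumor.

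The log2 fold change of Chga was -1.53 with a standard error of 0.63, which placed it among the 18 genes (0.138%) lower in Cryo past both the fold and the p threshold, a set its choice fixed. The genes nearest to the fold threshold were Spa17, just inside at 1.0015, and Gbp11, just outside at -0.9995. Without Con replicate 4 the log2 fold change of Chga was -0.69 with a standard error of 0.47, the Con mean was 1.65 ± 0.921 CPM (SD, n = 8) and the fold threshold was no longer met. Without Cryo replicates 2, 4 and 5, which included the highest Cryo levels, it was -2.38, and without these and Con replicate 4 it was -1.54. The biological coefficient of variation was 0.822, and 99.3% of tested genes were less dispersed. In whole tumors, fewer cells of a type and less RNA per cell cannot be told apart for any of these genes.

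**Figure D2:**
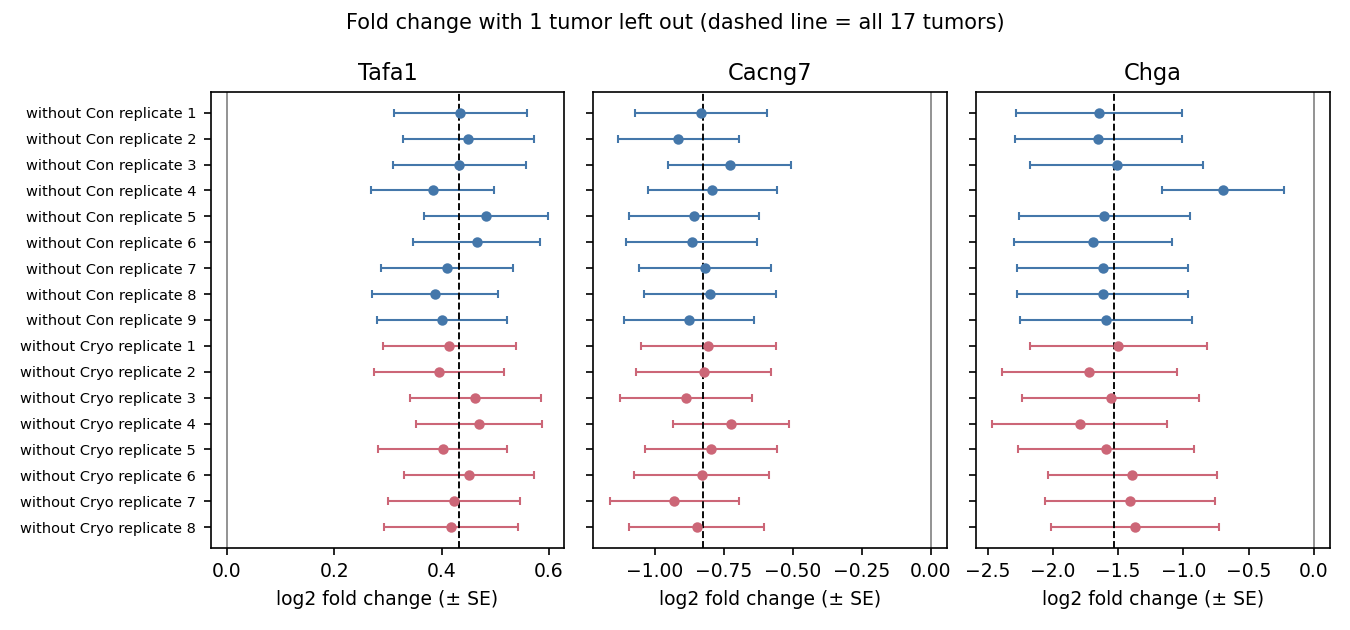
Log2 fold change (Cryo over Con, with standard error) of the 3 genes after leaving out 1 tumor at a time (points with bars), beside the value with all tumors (dashed line). Tafa1 stays between 0.38 and 0.48 and Cacng7 between -0.93 and -0.72, while Chga runs from -1.80 to -0.69, the last without Con replicate 4.

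On a scale per length, which allows levels to be compared between genes, the order was Tafa1, Cacng7 and Chga in both groups. Tafa1 stood at 8.68 ± 1.501 FPKM in Con (SD, n = 9) and 10.9 ± 1.40 FPKM in Cryo (SD, n = 8). Cacng7 stood at 1.39 ± 0.467 FPKM in Con and 0.739 ± 0.276 FPKM in Cryo. Chga stood at 1.13 ± 1.56 FPKM in Con and 0.351 ± 0.238 FPKM in Cryo, so that it and Cacng7 did not differ beyond their spread in Con. Averaged over all tumors, Tafa1 was above 61.2% of tested genes by FPKM, Cacng7 above 15.1% and Chga above 11.7%.

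Most relatives of the 3 genes had too few counts to pass the filter. In the TAFA family, Tafa5 was present at a level per length like that of Tafa1, with a mean of 10.9 FPKM over all tumors, and its log2 fold change was 0.33 with a standard error of 0.24. It had an unadjusted p under 0.05 with limma voom and, with edgeR's quasi-likelihood test, only without Con replicate 5. Tafa3 was low, at 1.09 ± 0.530 CPM in Con (SD, n = 9) and 0.709 ± 0.323 CPM in Cryo (SD, n = 8), with a log2 fold change of -0.62 and a standard error of 0.34. Its unadjusted p was under 0.05 only without Con replicate 1 and without Cryo replicate 1. Tafa2 and Tafa4 had at most 6 counts in any tumor and did not pass the filter on low counts. Nrxn2 and Nrxn3, which encode presynaptic proteins that bind TAFA proteins, and Gpr1, a receptor reported for Tafa1, had at most 12 counts in any tumor.

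Of the 8 calcium channel gamma genes, Cacng7 alone passed the filter, and the others had at most 19 counts in any tumor. Its genomic neighbor Cacng8 had 1 to 17 counts per tumor and its other family neighbor Cacng6 had 0 to 4. The pore subunits that Cacng7 accompanies in neurons were hardly present: Gria2 and Gria4 had at most 9 counts, Gria1 had at most 17, and Gria3 passed the filter at 1.63 ± 0.605 CPM in Con (SD, n = 9) and 1.29 ± 0.796 CPM in Cryo (SD, n = 8). Of the 11 genes of that list, Dlg4, which encodes the postsynaptic scaffold PSD-95, had the highest level per length, with a mean of 3.11 FPKM over all tumors and a log2 fold change of -0.05 with a standard error of 0.10.

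Among the 7 granins, the family of granule proteins to which Chga belongs, Chga and Vgf passed the filter, and Chga had the higher level per length. Vgf, a nerve growth factor-inducible granin, was at 0.918 ± 0.367 CPM in Con (SD, n = 9) and 1.06 ± 0.772 CPM in Cryo (SD, n = 8), a log2 fold change of 0.17 with a standard error of 0.42. Chgb, the chromogranin usually found beside Chga, had at most 10 counts in any tumor, Scg2 at most 3 and Scg3 at most 16. None of the 8 gut hormone genes passed the filter. Cck reached 31 counts in Con replicate 4 and 21 in Cryo replicate 4, and Nts 28 in Con replicate 3 and 30 in Cryo replicate 4. Summed, the 8 genes were highest in replicate 4 of each group, at 2.91 CPM in Con and 4.06 CPM in Cryo. These tumors also had the most Chga in their groups, and the relation was not tested. Of the 13 neuroendocrine regulators and markers, Neurod1 and Nkx2-2, transcription factors of enteroendocrine cells, had 0 counts in every tumor. Syp had 1 to 16 counts per tumor, and 4 genes passed the filter: Ncam1, Eno2, Uchl1 and Rest, the last given below. Ncam1, Eno2 and Uchl1 had log2 fold changes of 0.21, 0.23 and 0.52 with standard errors of 0.16, 0.15 and 0.38. Their Con means were 29.5, 10.3 and 0.734 CPM.

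**Figure D3:**
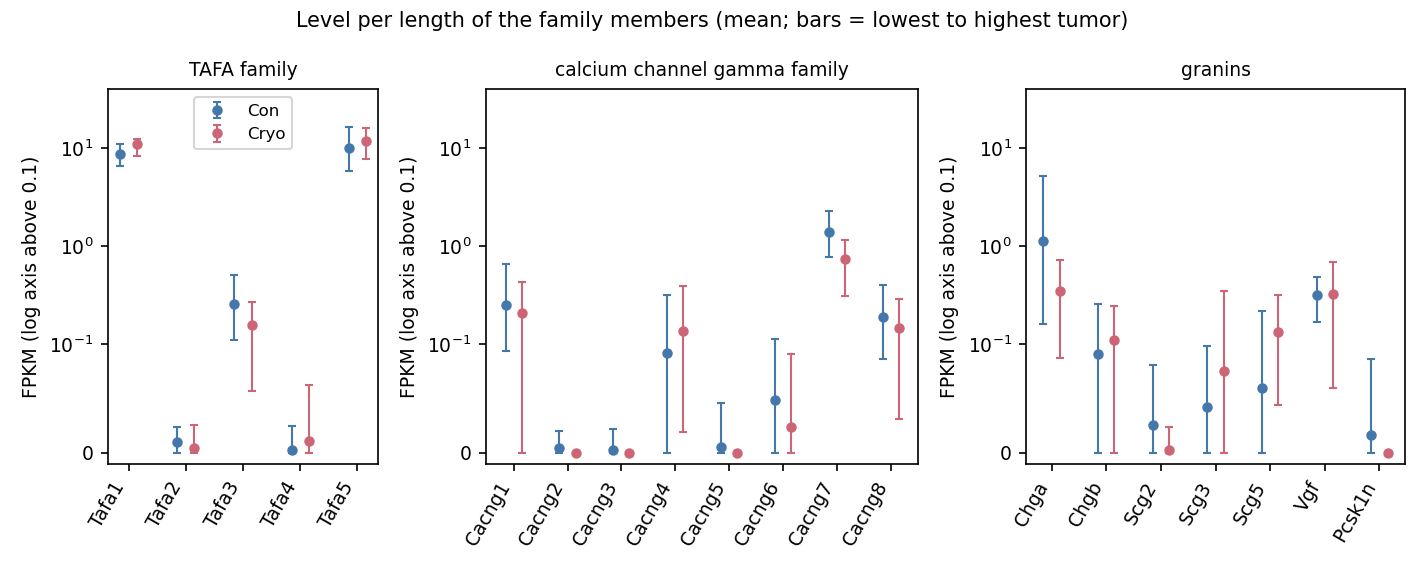
Level per length (FPKM, on an axis that is logarithmic above 0.1 and linear below it) of the TAFA, calcium channel gamma and granin genes, with points at the means and bars from the lowest to the highest of the 9 Con and 8 Cryo tumors. Tafa1 at 10.9 FPKM and Tafa5 at 11.7 FPKM in Cryo stand above the rest of their family, Cacng7 is the only gamma gene above the filter, and Chga has its widest spread in Con, up to 5.19 FPKM in replicate 4.

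Beyond the families, 134 neural and neuroendocrine genes in 11 lists were examined, of which 133 were in the table, 9 had 0 counts in every tumor and 36 had at most 3 counts in any tumor. Of these, 43 passed the filter, 40 of them other than Tafa1, Cacng7 and Chga. Among the 40, 4 (10.0%) had an unadjusted p under 0.05, beside 4.91% of all genes tested, and their adjusted p was 0.728 each with edgeR's quasi-likelihood test. By direction, 2 were higher, beside 3.74% of all genes, and 2 were lower, beside 1.17%. The signs were even, with 20 positive and 20 negative log2 fold changes, a median of 0.00 beside a median of -0.01 over all genes, and a range from -0.74 to 0.73.

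The 4 genes differed in direction. Cacna1a, the pore of P/Q-type calcium channels, was higher in Cryo with a log2 difference of 0.73 (standard error 0.29), but only 4 of 8 Cryo tumors lay above the Con median of 4.53 CPM, and without Cryo replicates 2, 4 and 5 the value was 0.00. Its unadjusted p was above 0.05 without Cryo replicate 4 and without Cryo replicate 5, and the lowest of the 17 values with 1 tumor left out was 0.51. Pou4f1, a transcription factor of sensory neurons, was higher by 0.50 (standard error 0.22), with 8 of 8 Cryo tumors above the Con median of 1.07 CPM. Cacna1g, the pore of a T-type calcium channel, was lower with a log2 fold change of -0.74 (standard error 0.29), and 8 of 8 Cryo tumors lay below the Con median of 1.61 CPM. Ngfr, the low-affinity neurotrophin receptor, was lower with a log2 fold change of -0.44 (standard error 0.20), with 7 of 8 Cryo tumors below the Con median of 25.9 CPM.

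Leaving out 1 tumor at a time kept the unadjusted p of Cacna1g under 0.05 in 17 of 17 fits, of Cacna1a in 15, of Pou4f1 in 10 and of Ngfr in 9. Over these fits the log2 fold change of Pou4f1 ran from 0.40 to 0.58 and that of Ngfr from -0.51 to -0.33. With Cryo replicates 2, 4 and 5 left out, Pou4f1 was the only one of the 4 with such a p, Isl1 joined it, the log2 fold change of Cacna1g was -0.64 and that of Ngfr was -0.19. With Cryo replicate 7 left out as well, Isl1 was the only neural gene with such a p. With limma voom, Ngfr alone of the 4 kept such a p, and the log2 fold change of Cacna1a was 0.13.

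**Figure D4:**
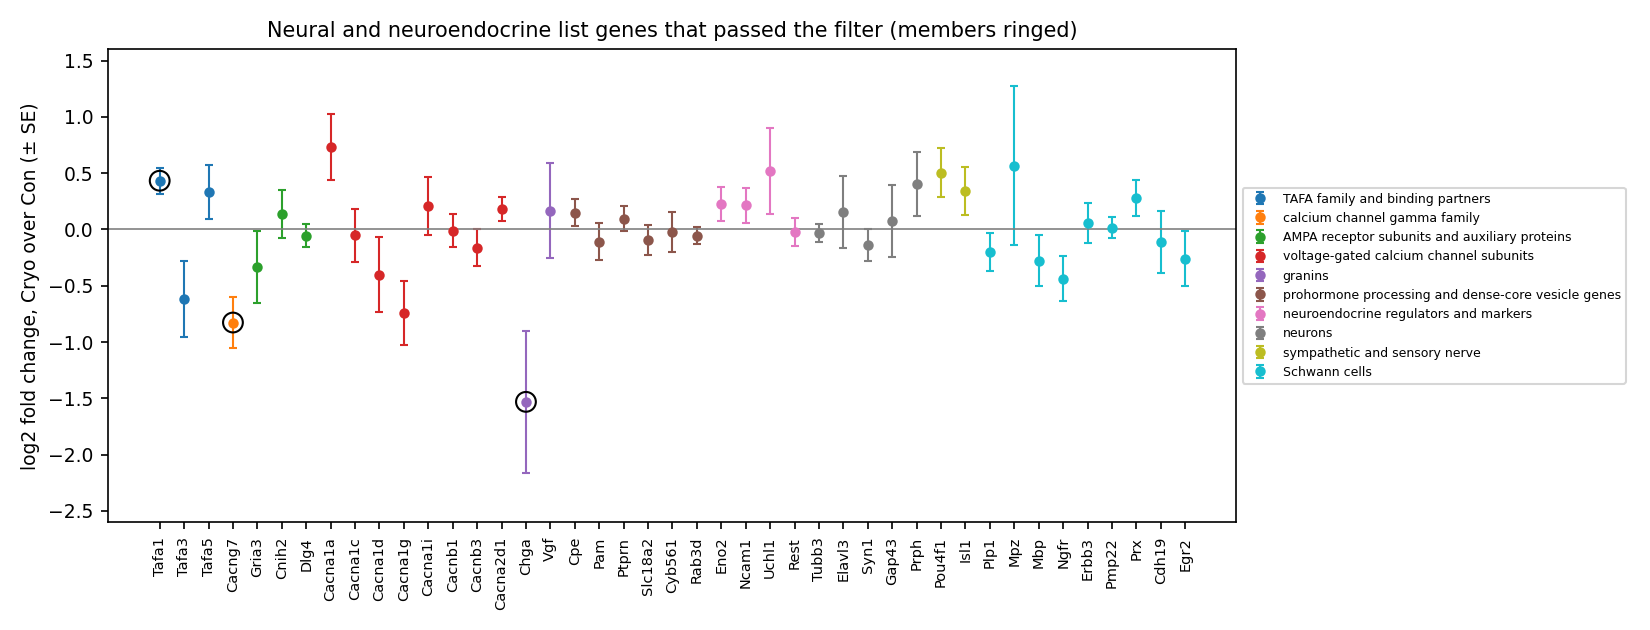
Log2 fold change (Cryo over Con, with standard error) of the 43 list genes that passed the filter, colored by list, with Tafa1, Cacng7 and Chga ringed. The other 40 genes lie between -0.74 and 0.73 around a median of 0.00.

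The most abundant members of the other lists had no unadjusted p under 0.05. The neuron-enriched tubulin Tubb3 averaged 270 FPKM over all tumors, the prohormone-trimming enzyme Cpe 112 FPKM and the myelin protein gene Pmp22 89.4 FPKM, with log2 fold changes of -0.03, 0.15 and 0.02 and standard errors of 0.08, 0.12 and 0.09. Rest, a repressor of neuronal genes in other cells, stood at 75.9 ± 8.46 CPM in Con (SD, n = 9) and 74.7 ± 16.2 CPM in Cryo (SD, n = 8). Cacnb3, a calcium channel beta subunit, had a log2 fold change of -0.16 and Isl1, a transcription factor of neurons and endocrine cells, of 0.34, each within 2 standard errors of 0. Isl1 nonetheless had an unadjusted p under 0.05 with limma voom, without Cryo replicate 4 and without Cryo replicates 2, 4 and 5, and Cpe had one with limma voom. Th and Hand2, markers of sympathetic neurons, had 0 counts in every tumor.

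Whether the 3 genes moved together from tumor to tumor was tested within each group. The choice of Chga was not independent of these values, since its fold change fell under the threshold without Con replicate 4, which enters every Con relation of Chga. None of the 6 relations passed 0.05 after Benjamini-Hochberg adjustment in the exact permutation test (two-sided, smallest adjusted p = 0.261). The strongest was between Tafa1 and Chga in Con, where Pearson's r of log2 CPM was -0.65 (n = 9, exact permutation p = 0.0497, adjusted p = 0.261) and Spearman's rho was -0.63 (exact permutation p = 0.0760). Without Con replicates 4 and 8, the 2 tumors farthest from the median Tafa1 level, r was -0.46 (n = 7, exact permutation p = 0.297) and no longer passed an unadjusted 0.05. In Cryo the same pair gave r = -0.02 (n = 8, exact permutation p = 0.963).

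Cacng7 and Chga gave r = 0.54 in Con (n = 9, exact permutation p = 0.130, rho = 0.55) and r = -0.59 in Cryo (n = 8, exact permutation p = 0.112, rho = -0.64), and the difference between the groups was not tested. Without Cryo replicates 4 and 7, the 2 tumors farthest from the median Cacng7 level, the Cryo value was -0.18 (n = 6, exact permutation p = 0.7375). Tafa1 and Cacng7 gave r = -0.48 in Con (n = 9, exact permutation p = 0.192) and r = 0.27 in Cryo (n = 8, exact permutation p = 0.549). Cryo replicates 2, 4 and 5 stood apart in overall expression, and the 5 other Cryo tumors were too few for a correlation of their own.

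Levels of other cell types' markers moved with Chga across tumors, which was examined after the values were seen. Among 74 relations of the log2 CPM of the 3 genes with the mean log2 CPM of marker lists and with Tafa5, 19 had an unadjusted exact permutation p under 0.05, 10 of them for Chga, and 0 passed adjustment (smallest adjusted p = 0.151). For mast cells, granule-bearing leukocytes, r with Chga was 0.87 in Con (n = 9, rho = 0.87, exact permutation p = 0.00471, adjusted p = 0.151) and 0.82 in Cryo (n = 8, rho = 0.79, exact permutation p = 0.0174, adjusted p = 0.151). Without the 2 tumors farthest from the median mast cell level it was 0.67 in Con (n = 7, exact permutation p = 0.0806) and 0.79 in Cryo (n = 6, exact permutation p = 0.0611). For leukocytes, r with Chga was 0.76 in Con (n = 9, rho = 0.78, exact permutation p = 0.0249) and rested on Con replicates 1 and 4, since without them it was 0.36 (n = 7, exact permutation p = 0.403), while in Cryo it was 0.11 (n = 8, rho = -0.19, exact permutation p = 0.795). Mast cells were not alone: r with Chga was 0.84 for fibroblasts in Con (n = 9, rho = 0.80, exact permutation p = 0.00536, adjusted p = 0.151) but -0.41 in Cryo (n = 8, exact permutation p = 0.304). For epithelial cells it was 0.86 in Cryo (n = 8, rho = 0.88, exact permutation p = 0.00920, adjusted p = 0.151) but -0.11 in Con (n = 9, exact permutation p = 0.793). For the neuron list it was 0.75 in Cryo (n = 8, rho = 0.69, exact permutation p = 0.0385, adjusted p = 0.168) but -0.51 in Con (n = 9, exact permutation p = 0.162). In Cryo it was also 0.82 for epidermis, 0.80 for erythroid cells and 0.74 for adipocytes (exact permutation p = 0.0208, 0.0209 and 0.0306, adjusted p = 0.151 each). In Con these were -0.41, 0.40 and 0.51 (exact permutation p = 0.284, 0.297 and 0.160). For endothelial cells r with Chga was 0.67 in Con (exact permutation p = 0.0326, adjusted p = 0.151) and -0.06 in Cryo (exact permutation p = 0.887). The differences between the groups were not tested. Cryo replicates 2, 4 and 5, which stood apart in overall expression, had the highest Chga, epithelial, epidermis and erythroid levels in Cryo. Mast cell means were highest in Cryo replicates 3, 4 and 5. The part of that split in the Cryo relations of Chga was not tested. Tafa1 gave r = -0.72 for both mast cells (exact permutation p = 0.0241, adjusted p = 0.151) and fibroblasts (exact permutation p = 0.0255, adjusted p = 0.151) in Con, and -0.09 and -0.10 in Cryo (exact permutation p = 0.837 and 0.808). For endothelial cells Tafa1 gave r = -0.79 in Cryo (n = 8, rho = -0.88, exact permutation p = 0.0140, adjusted p = 0.151). Without Cryo replicates 3 and 5 that value was -0.78 (n = 6, exact permutation p = 0.0653). In Con Tafa1 gave r = -0.56 for endothelial cells (n = 9, exact permutation p = 0.116).

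Con replicate 4, the tumor with the most Chga, also had the highest summed levels of mast cell, leukocyte, fibroblast and endothelial markers of all 17 tumors. The 8 mast cell markers, 6 of which passed the filter, summed to between 7.39 and 69.5 CPM in Con, with the top value in replicate 4, and to between 11.2 and 40.04 CPM in Cryo. None of the 8 was at 0 in all tumors, and 5 of the 6 tested were highest in Con replicate 4. The 7 leukocyte markers summed to between 106 and 552 CPM in Con, again highest in replicate 4, and to between 111 and 233 CPM in Cryo. The 9 epithelial markers summed to between 16.9 and 97.4 CPM in Con and between 10.4 and 216 CPM in Cryo, highest in Cryo replicate 5, and of these Cdx2 was at 0 throughout. In Con replicate 4, 5 of the 43 tested neural genes (11.6%) had their highest level, beside 12.3% of all genes. The part of these cells in the Chga level was not tested.

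**Figure D5:**
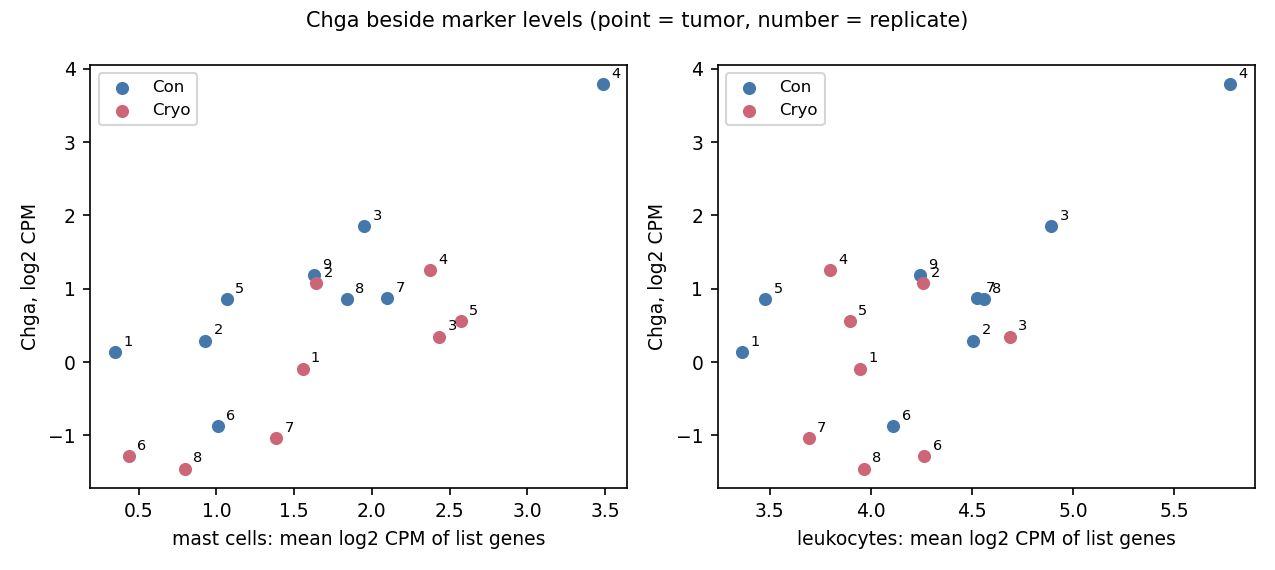
Chga level (log2 CPM) against the mean log2 CPM of mast cell markers and of leukocyte markers, with a point for each numbered Con and Cryo tumor. Chga is higher where the mast cell mean is higher in both groups (r = 0.87 in Con and 0.82 in Cryo), and Con replicate 4 is at the top right of both panels. Cryo replicates 2, 4 and 5, which stood apart in overall expression, have the highest Chga levels in Cryo.

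The genes whose pattern over the 17 tumors was most like each gene were taken by Spearman correlation of log2 CPM after removing the group means, as a description in which all genes share the same libraries. For Tafa1 these were Dbp (rho = 0.93), a transcription factor of the circadian clock output, Nova1 (0.88), a neuronal splicing regulator, Ppox (0.88), an enzyme of heme synthesis, Phka2 (0.88), a phosphorylase kinase subunit, and Riok1 (0.87), a kinase of ribosome maturation. For Cacng7 they were Shc2 (0.85), a signaling adaptor, Plekha3 (0.83), Man1c1 (0.83), a Golgi mannosidase, Sox17 (0.80), an endothelial and endodermal transcription factor, and Abcc3 (0.80), an organic anion exporter. For Chga they were Scamp2 (0.96), a secretory carrier membrane protein, Cd302 (0.95), a C-type lectin of myeloid cells, Ltb (0.95), which encodes lymphotoxin beta, Septin1 (0.94) and Bcl2l14 (0.94). With Pearson's r, 3 of the 5 genes for Tafa1, 2 for Cacng7 and 2 for Chga were the same.

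By the same measure, Cacng7 was positively related to 5 of 5 tested leukocyte genes and 6 of 6 mast cell genes, with a median rho of 0.46 and 0.25. The same held for 7 of 7 fibroblast and 4 of 5 endothelial genes, with a median rho of 0.40 and 0.55. It also held for 4 of 4 skeletal muscle and 4 of 4 adipocyte genes, with a median rho of 0.45 and 0.25. For epithelial and epidermis genes Cacng7 was positively related to 1 of 5 and 0 of 3. Tafa1 was positively related to 0 of 5 tested leukocyte genes and 0 of 6 mast cell genes, with a median rho of -0.34 and -0.38. For endothelial genes Tafa1 was positively related to 0 of 5, with a median rho of -0.49. Chga was positively related to 5 of 5 leukocyte and 6 of 6 mast cell genes, with a median rho of 0.46 and 0.71. Chga was also positively related to 5 of 5 epithelial and 4 of 4 adipocyte genes, with a median rho of 0.45 and 0.70. Over all genes the median rho was -0.02 for both Tafa1 and Chga and 0.07 for Cacng7. Of 13004 genes, 6268 were positively related to Tafa1, 6314 to Chga and 7079 to Cacng7. Tafa5, the other abundant TAFA gene, had a rho of 0.68 with Tafa1.

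The positions of the genes in the table place Tafa1 (ENSMUSG00000059187) on the forward strand of chromosome 6 at 96090135 to 96634159, with 1700123L14Rik lying inside it on the reverse strand. That gene had 0 to 11 counts per tumor, and reads of the pair cannot be told apart by strand because strand use was not given in the sources used here. Cacng7 (ENSMUSG00000069806) lies on chromosome 7 at 3381471 to 3416737 on the forward strand. Chga (ENSMUSG00000021194) lies on chromosome 12 at 102521228 to 102531287, between Golga5 and Itpk1, whose log2 fold changes were -0.06 and -0.12 with standard errors of 0.08 and 0.14. The table names no build for these positions, and they are not those of the promoter windows above.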

How the data were processed

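Bulk RNA sequencing of 17 MC38 tumors was analysed (9 Con, 8 Cryo, day 5), grouped by the sample titles. The authors deposited a table of raw counts per gene and, beside it, FPKM values that equalled the deposited counts divided by gene length and library total in all 372827 cells (relative tolerance 1e-06). The aligner, the counter and the strand setting were not given in the sources used here. The labels name GRCm38 and mm10, but only 512 of 21827 shared gene IDs had the same start and end in a GRCm38 annotation, so no build is given for the table's positions.

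Counts were filtered with filterByExpr (13005 genes kept), scaled by the trimmed mean of M-values and fitted with edgeR 4.0.16 (quasi-likelihood test, group as the only term, Benjamini-Hochberg adjustment over all genes kept). The edgeR p-values rest on library totals of 13524899 to 17898672 counts. Log2 CPM used a prior count of 2. Alternatives were DESeq2 1.42.0, limma 3.58.1 (voom with quality weights), other scalings and filters, a replicate block, and tumors left out. Correlations used SciPy 1.17.1 with exact permutation over pairings. The fits were tested on simulated counts.

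The members, gene lists and tests were chosen with earlier results of these data known. Named genes are the 3 members, list genes with an unadjusted p under 0.05, the gene with the highest level of each list, defining genes of a list, and the 5 genes most like each member. A few list genes are not reported here.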

Additional observations from a re-analysis of the deposited data

Results flagged for a closer look

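The level of Chga in Con replicate 4, 13.7 CPM, lay far above that of the other 8 Con tumors, the next of which had 3.50 CPM. The gap was 0.769 of the range of the group, past Dixon's critical value for 9 samples. It was the only such value among 18 sets of tumors checked (9 genes in 2 groups). Chance gives about 1 in 20 per set, so 1 such value among 18 sets is near what chance gives. The gap was taken on CPM. On log2 CPM, where the rule was not applied, this tumor stood at 3.79, the next at 1.86 and the lowest at -0.88. Chga was chosen on a fold change that fell under its threshold without this tumor, so the value is a description and not an independent finding.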

How the results depend on the processing

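Tafa1, Cacng7 and Chga kept their direction under every other test, scaling, filter and set of tumors tried, with log2 fold changes of 0.37 to 0.54, -0.87 to -0.65 and -2.38 to -1.21. Leaving out 1 tumor at a time gave 0.38 to 0.48, -0.93 to -0.72 and -1.80 to -0.69.

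The number of all genes past the fold and p threshold was 64, and was 432 with no filter on low counts, which adds genes with few counts, and 34 (without Cryo replicate 5) to 165 (without Cryo replicate 3) with 1 tumor left out. The count of neural list genes with an unadjusted p under 0.05 was 4 of 40 tested, beside 639 of 13005 genes. With no filter it was 10 of 121 (2 higher and 8 lower), beside 992 of 17819. With voom it was 6 of 40 (5 higher and 1 lower), beside 1312 of 13005. These were Ngfr and 5 others, without Cacna1a, Cacna1g and Pou4f1. Without Cryo replicates 2, 4 and 5 it was 2 of 44 (Pou4f1 and Isl1), beside 325 of 13250. Without replicate 7 as well it was 1 of 45 (Isl1), beside 171 of 13378. With 1 tumor left out the lowest was 2 of 40 (without Con replicate 3), beside 352 of 12946. The highest was 5 of 41 (without Cryo replicate 3), beside 1388 of 13040. Apart from the filter and the smaller sets of tumors, the cause was not tested.

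With the replicate number as a block, 33 genes passed the fold and p threshold and the log2 fold change of Chga was -1.21. Of the neural genes 3 of 40 had an unadjusted p under 0.05, beside 439 of 12955 genes. Same-numbered tumors correlated between -0.51 and 0.64 in their deviations, and 2 of 8 correlated best with their own number, so the numbers were not taken to pair the tumors.

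In Cryo the correlation of Tafa1 with Cacng7 was -0.071 as Spearman's rho and -0.25 without the 2 farthest tumors, against r = 0.27, and that of Tafa1 with Chga was 0.77 without the 2 farthest tumors, against -0.02. In Con the correlation of Tafa1 with Chga no longer passed an unadjusted 0.05 as rho (-0.63) or without 2 tumors (-0.46). The correlation of Chga with leukocyte markers in Cryo was 0.11 as r and -0.19 as rho. Without 2 tumors the relations of Chga with leukocytes in Con (0.36) and with mast cells in Con (0.67) and Cryo (0.79) no longer passed. Most relatives of the 3 genes had too few counts to pass the filter. In the edgeR fit with no filter, Cacng2 and Scg2, at most 2 and 3 counts in any tumor, had an unadjusted p under 0.05. In that fit 0 genes had an adjusted p under 0.05.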
